A study of Mus musculus with 12 samples.

Results

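Trim6, Trim5, Trim12a, Trim12c, Trim30a, Trim30d, Trim34a and Trim21 are paralogous genes of the tripartite motif (TRIM) family, and 7 of them lie in 1 cluster on mouse chromosome 7. The set was taken by gene symbol from the deposited count tables, which list all 8 members among 18929 genes. It was chosen because Trim6 differed from control in opposite directions in the 2 mutants, so the Trim6 values given here are a description without a test. The libraries were 4 each from 3 groups of jejunal enteroids, which are small intestinal crypt cells grown as 3-dimensional epithelial cultures, all kept in ENR medium for 5 days. The control is named wild-type or villin-Cre in the sources, after the Cre recombinase driven in intestinal epithelium, and had no deleted Hdac gene. The Hdac1-deficient enteroids came from floxed Hdac1 mice with villin-Cre, and the Hdac2-deficient enteroids from floxed Hdac2 mice with villin-Cre. Both genes encode class I histone deacetylases. All animals were on a mixed background of C57BL/6J, 129SV and CD1. The methods name 1 mouse per genotype as the source of crypts, so the deletion, the enteroid line and the alleles which that mouse carried at the Trim cluster cannot be told apart. No source says that libraries of 1 genotype came from separate mice, so p-values measure only the spread between libraries, which may be technical.

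TRIM proteins carry a RING domain with ubiquitin ligase activity, a B-box and a coiled coil, and most proteins of this cluster end in a PRYSPRY domain that binds the target. Many of the genes are induced by interferon through the ISRE, a promoter element bound by IRF factors, and their products restrict viruses or tune the signals that detect them. TRIM5 proteins bind retroviral capsids, TRIM6 makes unanchored ubiquitin chains that act on the kinase IKKε, TRIM21 is a cytosolic receptor for antibody-coated particles, and TRIM30A restrains NF-κB signalling.

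In the GENCODE annotation of GRCm38 the cluster ran from the start of Trim6 to the end of Trim30d over 289.1 kb (chr7:104218793-104507849). Trim6 and Trim34a lay on the plus strand, followed by Trim5, Trim12a, Trim12c, Trim30a and Trim30d on the minus strand. Trim21 (chr7:102557921-102565486, minus strand) lay apart from the cluster on the same chromosome. Promoter sequences of all 8 members were found in the RefSeq table of GRCm38.p6, as windows of 300 bases with 250 bases before the start site. They were searched on both strands for the ISRE core, taken as GAAA and a second GAAA with any 2 bases between them, which reads as TTTC and TTTC on the other strand. The letters were present in the windows of 7 of the 8 members and in 3.44% of 32851 promoter windows in the table. The windows of Trim5, Trim12a and Trim12c lie at separate positions but are near copies of each other in sequence. Those of Trim30a and Trim30d were identical at 93.9% of aligned bases. The matches within each of these sets are not independent, so the share of members with the letters rests on fewer separate sequences. A match is a description of letters and not a bound site. The complete windows of Trim6, Trim12a and Trim12c are shown because these genes changed in different directions, with the ISRE letters in capitals.
Trim6 (chr7:104218545-104218844, plus strand): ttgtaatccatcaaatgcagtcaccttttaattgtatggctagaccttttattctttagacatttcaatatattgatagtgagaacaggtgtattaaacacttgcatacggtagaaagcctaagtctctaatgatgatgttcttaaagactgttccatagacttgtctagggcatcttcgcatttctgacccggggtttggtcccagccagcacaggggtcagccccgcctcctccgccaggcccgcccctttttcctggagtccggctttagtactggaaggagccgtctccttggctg
Trim12a (chr7:104315446-104315745, minus strand): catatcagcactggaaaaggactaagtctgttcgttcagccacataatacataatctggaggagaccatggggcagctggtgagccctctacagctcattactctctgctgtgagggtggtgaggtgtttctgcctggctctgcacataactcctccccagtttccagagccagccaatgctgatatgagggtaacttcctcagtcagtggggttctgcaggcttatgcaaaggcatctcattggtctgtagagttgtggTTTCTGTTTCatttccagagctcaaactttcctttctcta
Trim12c (chr7:104353300-104353599, minus strand): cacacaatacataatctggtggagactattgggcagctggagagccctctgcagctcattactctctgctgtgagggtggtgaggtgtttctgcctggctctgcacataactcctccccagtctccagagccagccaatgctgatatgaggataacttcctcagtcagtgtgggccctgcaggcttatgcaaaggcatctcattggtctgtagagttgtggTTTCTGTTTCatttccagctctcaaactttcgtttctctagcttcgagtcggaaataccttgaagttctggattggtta

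The Trim6 window did not hold these letters. In Trim12a and Trim12c the core stood in the same surrounding sequence, and the promoters differed at 13 of 260 aligned bases. The promoters of Trim12a and Trim5 were identical over the 241 bases that aligned. The 30 bases around the core are given for the other members to show how far the sequence is shared, again with the ISRE letters in capitals.
Trim5: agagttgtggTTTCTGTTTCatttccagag
Trim30a: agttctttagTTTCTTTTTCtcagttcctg
Trim30d: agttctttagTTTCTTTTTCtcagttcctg
Trim34a: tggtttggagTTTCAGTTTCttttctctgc
Trim21: cctctgagagGAAACTGAAAGTGAAAtttg

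The 30 bases of Trim5 were the same as those in Trim12a, and those of Trim30a, from the first of its 2 RefSeq start sites, were the same as in Trim30d. In Trim21 the capitals cover 2 overlapping matches.

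Between 20693200 and 30658628 reads were counted on genes per library, so that 3 counts, taken as the floor of detection, equalled 0.0979 to 0.145 CPM (counts of a gene relative to all counts of its library). This floor covers counting error only. The targeted genes were read first. Control libraries held Hdac1 at 90.6 ± 2.76 CPM (SD, n = 4), and the Hdac1-deficient ones at 4.23 ± 0.834 CPM. Control libraries held Hdac2 at 137.0 ± 3.85 CPM, and the Hdac2-deficient ones at 75.9 ± 2.89 CPM, a log2 fold change of -0.84 on counts over the whole gene, in which the floxed exons are not separated from the rest. All 10 epithelial markers were in the tables, summing to 6020 to 6270 CPM in the control libraries, 6270 to 6370 in the Hdac1-deficient ones and 7320 to 7510 in the Hdac2-deficient ones. Of 12 immune markers, 6 were in the tables, at summed levels of 29.5 to 32.0, 23.5 to 24.5 and 28.3 to 32.8 CPM in the same order. Most of this was Cd14, at 27.5 ± 1.05, 20.2 ± 0.452 and 25.9 ± 1.43 CPM, while Itgam was at 0.835 ± 0.0697, 2.02 ± 0.451 and 2.68 ± 0.539 CPM, Csf1r at 0.412 ± 0.197, 0.729 ± 0.0629 and 0.146 ± 0.0773 CPM, and Laptm5 at 0.237 ± 0.118, 0.151 ± 0.0973 and 0.577 ± 0.242 CPM. The leukocyte marker Ptprc had at most 8 counts in a group and the T cell and B cell markers were not listed. Of 10 stromal and endothelial markers 4 were listed, at 1.39 to 1.87, 2.23 to 2.49 and 1.33 to 1.84 CPM. The part of these levels in the Trim results was not tested. In such bulk libraries fewer cells of a type and less RNA per cell cannot be told apart.

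A gene was called when its adjusted p in edgeR's quasi-likelihood test was at most 0.05 and it differed by more than 2-fold. Trim6, chosen for its pattern, had 39, 32, 42 and 22 counts in the control libraries, 10, 13, 21 and 22 in the Hdac1-deficient libraries and 96, 111, 105 and 88 in the Hdac2-deficient libraries. Relative to depth, the control mean was 1.19 ± 0.21 CPM, the Hdac1-deficient mean 0.571 ± 0.205 CPM and the Hdac2-deficient mean 4.19 ± 0.678 CPM (SD, n = 4 each). Every Hdac1-deficient library lay below and every Hdac2-deficient library above the control range in CPM. The fitted log2 fold changes were -1.05 and 1.80, and -2.86 between the mutants. The Hdac1 value was under 2-fold when Hdac1-deficient replicate 1 (-0.91), Hdac1-deficient replicate 2 (-0.92) or control replicate 3 (-0.97) was left out.

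**Figure D1:**
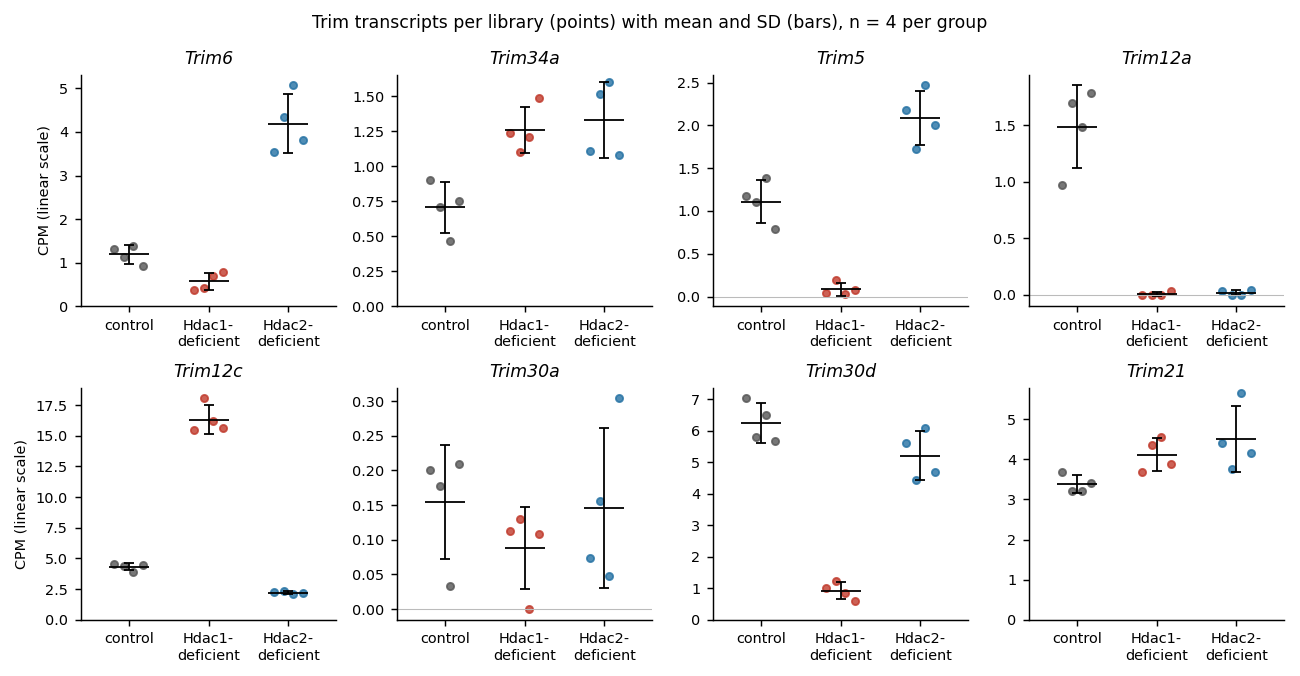
CPM of the 8 Trim genes on linear axes, each with its own scale, in the 4 libraries (points) of the control, Hdac1-deficient and Hdac2-deficient groups, with mean and SD (bars). Trim12a is near 0 in both mutants, Trim12c is highest in Hdac1-deficient libraries (15.5 to 18.1 CPM), and Trim6 is highest in Hdac2-deficient libraries (3.54 to 5.08 CPM).

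Trim5, Trim12a and Trim12c are the mouse genes most closely related to the capsid-binding TRIM5 of primates. In Hdac1-deficient enteroids Trim5 and Trim12a fell and Trim12c rose, whereas in Hdac2-deficient enteroids Trim12a fell, and Trim5 and Trim12c differed from control by less than 2-fold. Trim12a had 29, 48, 45 and 43 counts in the control libraries, 0, 0, 0 and 1 in the Hdac1-deficient ones and 1, 0, 0 and 1 in the Hdac2-deficient ones. No mutant library came near the lowest control library of 0.973 CPM. Over the summed counts Trim12a was 170-fold lower in Hdac1-deficient enteroids, with a 95% counting interval of 30.1 to 6755, and 70.9-fold lower in Hdac2-deficient enteroids, with an interval of 19.3 to 590.3. Both were called (edgeR adjusted p = 8.4e-10 and 1.7e-09), and the fitted log2 fold changes of -6.81 and -5.85 depend on the prior count at such low counts. Trim12a passed the filter on low counts only through the control libraries, where it was high. These p-values are thus not independent of that selection. Without Hdac1-deficient replicate 4, which held the only count of its group, the fitted value was -8.40. The difference between the mutants did not pass (adjusted p = 0.61 in edgeR), with 1 and 2 counts in all.

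Trim5 had 35, 31, 42 and 19 counts in the control libraries, 1, 6, 1 and 2 in the Hdac1-deficient ones and 59, 44, 51 and 46 in the Hdac2-deficient ones. The 3 groups did not overlap in CPM, at 1.11 ± 0.248, 0.0843 ± 0.0755 and 2.09 ± 0.315 CPM, and the Hdac1-deficient mean was below the floor of 3 counts. Trim5 fell in Hdac1-deficient enteroids (log2 fold change -3.62, SE 0.38, edgeR adjusted p = 7.2e-08). Against control, the Hdac2-deficient value was 0.89 on the log2 scale (SE 0.19, edgeR adjusted p = 3.1e-04), which is under the 2-fold limit. Between the mutants it was -4.52 (SE 0.33, edgeR adjusted p = 1.6e-11), lower in Hdac1-deficient enteroids. In both comparisons with Hdac1-deficient libraries, Trim5 passed the filter on low counts only through the other libraries, where it was higher. Those p-values are thus not independent of that selection. Hdac1-deficient replicate 2 held 6 of the 10 counts of its group. Without it the log2 fold changes of Hdac1-deficient enteroids were -4.44 against control and -5.32 between the mutants.

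Trim12c had the reverse order of levels, highest in Hdac1-deficient enteroids. It had 135, 124, 118 and 107 counts in the control libraries, 414, 558, 494 and 429 in the Hdac1-deficient ones and 61, 60, 43 and 50 in the Hdac2-deficient ones. The levels of 4.32 ± 0.279, 16.3 ± 1.19 and 2.21 ± 0.112 CPM were separated in all 3 groups. Trim12c rose in Hdac1-deficient enteroids by a log2 fold change of 1.94 (SE 0.08, edgeR adjusted p = 5.4e-14). In Hdac2-deficient enteroids the log2 fold change was -0.95 (SE 0.12, edgeR adjusted p = 5.0e-07), and between the mutants it was 2.88 (SE 0.09, edgeR adjusted p = 3.5e-19).

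Taking the 3 genes as a unit, their summed level averaged 6.93 ± 0.231 CPM for control, 16.4 ± 1.25 CPM for Hdac1-deficient and 4.32 ± 0.224 CPM for Hdac2-deficient enteroids. Trim12c made up 62.4% of this sum for control, 99.4% for Hdac1-deficient and 51.3% for Hdac2-deficient enteroids. The share of Trim5 was 16.1%, 0.492% and 48.2% in the same order, and that of Trim12a was 21.4%, 0.0579% and 0.464%. The coding sequences of these genes are near copies: Trim12a matched Trim5 at 97.1% and Trim12c at 96.4% of aligned bases, and Trim12c matched Trim5 at 96.6%. The coding sequence of Trim12a has 891 bases against 1491 for each of the others. Of the 100-base windows along their annotated transcripts, 11.7% for Trim5, 3.29% for Trim12a and 8.05% for Trim12c occur unchanged in an annotated transcript of another gene. Most such read-length stretches thus have no exact copy among the annotated transcripts of other genes. The rest of the genome and inexact copies were not searched. How reads with several equal matches were counted, or reads from strain alleles that differ from the reference, is not given in the sources used here, and the split of reads among the 3 genes is uncertain to that extent.

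**Figure D2:**
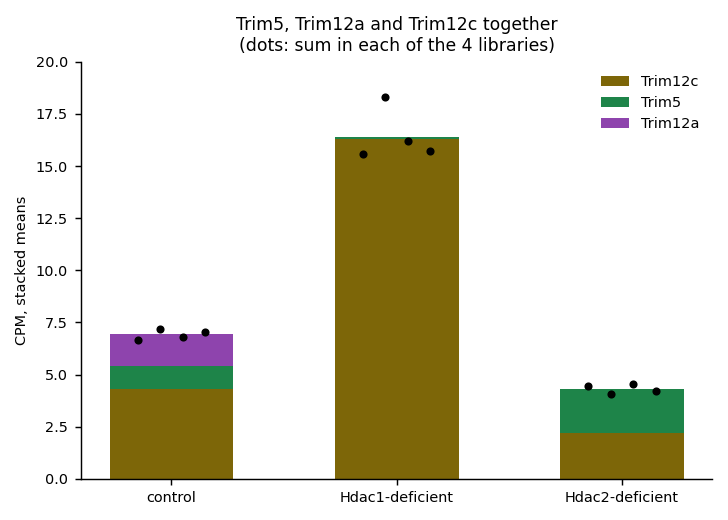
Mean CPM of Trim12c, Trim5 and Trim12a stacked from 0 for each group, with dots for the sum in each of the 4 libraries. The stack is tallest in Hdac1-deficient enteroids (16.4 CPM), where it is nearly all Trim12c, and Trim12a is visible only in control.

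Of the Trim30 genes, Trim30a encodes a regulator of NF-κB and inflammasome signalling in mice, a role not carried over here to Trim30d. Trim30d had 210, 164, 196 and 136 counts in the control libraries, 27, 38, 26 and 16 in the Hdac1-deficient ones and 152, 114, 126 and 108 in the Hdac2-deficient ones. The Hdac1-deficient libraries, at 0.919 ± 0.274 CPM, lay below all control libraries (6.25 ± 0.638 CPM), while the Hdac2-deficient libraries (5.21 ± 0.773 CPM) overlapped them. Trim30d fell in Hdac1-deficient enteroids (log2 fold change -2.74, SE 0.16, edgeR adjusted p = 6.7e-12) and was lower there than in Hdac2-deficient enteroids by a log2 difference of -2.48 (SE 0.17, edgeR adjusted p = 2.1e-12). Against control, the Hdac2-deficient value was -0.26 (SE 0.11, edgeR adjusted p = 0.039).

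Trim30a, whose coding sequence matches Trim30d at 90.2% of aligned bases, was at the limit of detection. It had 6, 5, 1 and 5 counts in the control libraries, 3, 4, 0 and 3 in the Hdac1-deficient ones and 2, 4, 1 and 7 in the Hdac2-deficient ones, and was left out of the test by the filter on low counts. The groups overlapped, and a difference in Trim30a was not detectable at this depth. Trim30a and Trim30d share 4.41% and 4.57% of their 100-base windows with each other.

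Trim34a, an interferon-responsive gene next to Trim6, was above control in both mutants. It had 27, 20, 14 and 18 counts in the control libraries, 33, 34, 37 and 41 in the Hdac1-deficient ones and 30, 39, 33 and 25 in the Hdac2-deficient ones. Both mutants lay above the control range in CPM, at 1.26 ± 0.163 and 1.33 ± 0.27 against 0.707 ± 0.183 CPM. The log2 fold changes were 0.84 (SE 0.22, edgeR adjusted p = 0.0022) and 0.91 (SE 0.24, edgeR adjusted p = 0.0021), under the 2-fold limit, and the value between the mutants was -0.07 (SE 0.20, edgeR adjusted p = 0.81). Of its 100-base windows 21% occur also in Trim34b, a copy with 98.2% coding identity, and 18% in Gm47248, which overlaps its exons on the opposite strand, so the Trim34a counts are uncertain.

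Trim21, apart from the cluster, stayed under 2-fold in every comparison. It had 110, 91, 97 and 82 counts in the control libraries, 98, 135, 139 and 107 in the Hdac1-deficient ones and 120, 96, 117 and 96 in the Hdac2-deficient ones. The levels were 3.39 ± 0.224, 4.12 ± 0.411 and 4.50 ± 0.823 CPM, and the lowest Hdac1-deficient library (3.68 CPM) fell within the control range, which reached 3.69 CPM. The log2 fold changes were 0.30 (SE 0.11, edgeR adjusted p = 0.022) and 0.41 (SE 0.13, edgeR adjusted p = 0.0076). Between the mutants the value was -0.11 (SE 0.12, edgeR adjusted p = 0.49). Trim21, like Trim6, shares none of its 100-base windows with an annotated transcript of another gene.

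Counted over the 6 tested members other than Trim6, 4 were called in Hdac1-deficient enteroids, 1 higher and 3 lower, where 10.6% of 14246 genes were called (6.87% higher and 3.71% lower). In Hdac2-deficient enteroids 1 was called, Trim12a, lower, where 8.30% of 14007 genes were called and 2.84% were called lower. The calls of Trim12a in both mutants and of Trim5 in Hdac1-deficient enteroids are not independent of the filter on low counts. These genes passed it there only through the control libraries. Leaving out control replicate 1 brought the Hdac2 count to 2, with Trim34a at a log2 fold change of 1.06, and leaving out control replicate 3 brought it to 3, with Trim5 at 1.01 and Trim12c at -1.0. Between the mutants 3 of the 6 were called, Trim5 and Trim30d lower and Trim12c higher in Hdac1-deficient enteroids, where 5.62% of 14510 genes were called (2.74% higher and 2.89% lower). All 6 had an adjusted p of at most 0.05 at any size of change against control in each mutant, as did 64.6% and 62.3% of all genes. For the small differences this did not hold throughout. Trim30d in Hdac2-deficient enteroids had an adjusted p of 0.072 in DESeq2, 0.052 in a fit of all 12 libraries, and 0.15, 0.11, 0.11 and 0.076 in edgeR without Hdac2-deficient replicate 2 or 4 or control replicate 1 or 3. Trim21 in Hdac1-deficient enteroids had an edgeR adjusted p of 0.058 to 0.076 without Hdac1-deficient replicate 2 or 3 or control replicate 2 or 3. Libraries of mutant and control did not overlap for 5 of the 6 in each mutant, against 58.5% and 56.0% of all genes. The median log2 fold change of the 6 was -1.22 for Hdac1-deficient and 0.07 for Hdac2-deficient enteroids, against -0.004 for all genes in each. In each mutant 3 of the 6 were higher and 3 lower, so these medians do not describe a common shift. The 2 comparisons use the same control libraries and are not independent.

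Per kilobase of annotated exon, the order of the members' levels differed between the groups. In control, Trim30d led at 1.66 ± 0.17 CPM per kb, followed by Trim12c at 1.16 ± 0.0746 and Trim21 at 0.912 ± 0.0602, without overlap between neighbours. Trim5, Trim34a, Trim12a and Trim6 followed between 0.243 and 0.302 CPM per kb and were not separated beyond their spread, and Trim30a was lowest at 0.0377. In Hdac1-deficient enteroids Trim12c led at 4.37 ± 0.319 CPM per kb, ahead of Trim21 at 1.11 ± 0.111. In Hdac2-deficient enteroids Trim30d at 1.39 ± 0.206, Trim21 at 1.21 ± 0.222 and Trim6 at 0.857 ± 0.138 CPM per kb came first, and the ranges of each neighbouring pair among these 3 overlapped.

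Few neighbours of the cluster were detected in these libraries. Within 500 kb on each side the annotation holds 101 genes, of which 14 were in the count tables, 7 of them members. None of the 54 olfactory receptor genes there was listed. Trim34b, between Trim12a and Trim12c, had 3, 2, 9 and 1 counts in the control libraries, 3, 8, 12 and 7 in the Hdac1-deficient ones and 18, 10, 11 and 12 in the Hdac2-deficient ones. Its fitted log2 fold change in Hdac2-deficient enteroids was 1.96 (SE 0.44, edgeR adjusted p = 5.8e-04), with the highest control library below the lowest Hdac2-deficient library. It passed the filter on low counts only in comparisons with Hdac2-deficient libraries, where it was highest. The p-value is therefore not independent of that selection. Of its 100-base windows 30.5% occur also in Trim34a. The pseudogene Trim30e-ps1, beyond Trim30d, had 9, 11, 4 and 9 counts in control, none in any Hdac1-deficient library and 7, 10, 5 and 14 in Hdac2-deficient libraries. Against a floor of 3 counts over the group, the Hdac1-deficient level was at least 11.3-fold lower than that of control and at least 14.4-fold lower than that of the other mutant. The latter comparison was called (edgeR adjusted p = 7.6e-06), and the former was not tested because of the filter. Trim30e-ps1 also passed the filter only in comparisons with Hdac2-deficient libraries. Of the other listed neighbours, Gm5900 had log2 fold changes of 0.29 and -0.60, Gm4887 had -0.49 and -0.35, neither past 2-fold, and Dnajc19-ps, Gm16464 and Usp17la were too low to test. Trim68, between Trim21 and the cluster at chr7:102677582-102687327, had log2 fold changes of 0.61 and -0.78 against control. Between the mutants the value was 1.38 (SE 0.12, edgeR adjusted p = 2.6e-10). Trim68 was named after its values were seen.

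**Figure D3:**
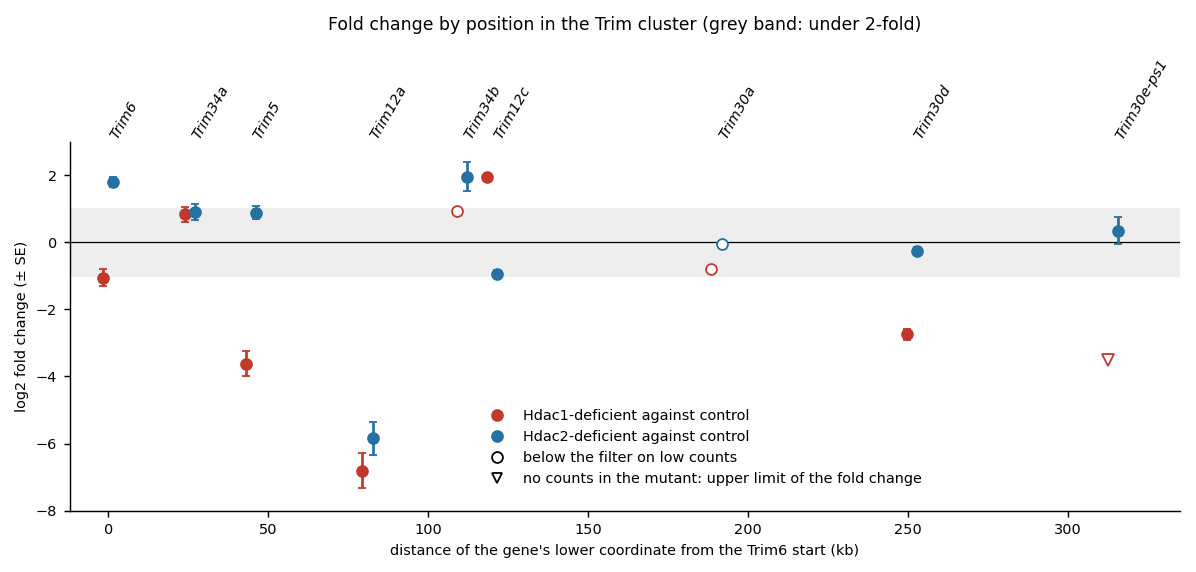
Log2 fold change against control (± SE) of the listed Trim genes by distance in kb of their lower coordinate from the Trim6 start, in Hdac1-deficient (red) and Hdac2-deficient (blue) enteroids, with open circles for genes below the filter and a triangle for the bound of Trim30e-ps1, which had no counts in Hdac1-deficient libraries. Trim12a lies far below 0 in both mutants, at -6.81 and -5.85, while genes on each side of it lie above and below 0.

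In Hdac1-deficient enteroids, called genes on the same strand of the cluster differed in direction. The called members other than Trim6 ran in the order Trim5 lower, Trim12a lower, Trim12c higher and Trim30d lower, all on the minus strand. In Hdac2-deficient enteroids Trim12a was the only member called other than Trim6. By position it lay between Trim5, on the minus strand and not called (log2 fold change 0.89), and Trim34b, on the plus strand (1.96). Trim34b passed the filter on low counts only in comparisons with Hdac2-deficient libraries.

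For comparison, 46 other Trim genes were in the tables. In Hdac1-deficient enteroids 3 of 36 tested were called (8.33%), all higher: Trim38, Trim72 and Trim80. In Hdac2-deficient enteroids 3 of 39 were called (7.69%), all higher: Trim34b, Trim72 and Trim80. Among all genes 10.6% and 8.30% were called. Between the mutants 5 of 39 were called (12.8%, against 5.62% of all genes), namely Trim38, Trim68 and Trim72, higher in Hdac1-deficient enteroids, and Trim34b and Trim30e-ps1, lower. Trim34b and Trim30e-ps1 passed the filter on low counts only in comparisons with Hdac2-deficient libraries. Trim38, a regulator of Toll-like receptor and interferon signalling, had 6.30, 5.30, 5.14 and 5.63 CPM in control and 26.9, 26.6, 25.6 and 30.1 CPM in Hdac1-deficient libraries, without overlap. It rose there by a log2 fold change of 2.30 (SE 0.07, edgeR adjusted p = 1.1e-15), with 0.03 in Hdac2-deficient enteroids and a difference between the mutants of 2.27 (SE 0.07, edgeR adjusted p = 6.5e-19). Trim72, a membrane repair factor known from muscle, rose in both, by 2.30 (SE 0.16, edgeR adjusted p = 1.1e-10) and 1.09 (SE 0.19, edgeR adjusted p = 4.0e-05) on the log2 scale.

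Genes of the interferon pathway were described from lists. Of 24 tested genes for interferon sensing and signalling, 2 were called in Hdac1-deficient enteroids (8.33%, against 10.6% of all genes) and 0 in Hdac2-deficient enteroids (against 8.30%). In the latter 22 had an unadjusted p under 0.05 in edgeR, as did 65.7% of all genes, and DESeq2 also called 0. At any size of change 17 were higher and 2 lower in Hdac1-deficient, and 20 higher and 2 lower in Hdac2-deficient enteroids, where 32.7% and 31.4% of all genes were higher by that rule. The median log2 fold changes of the list were 0.34 and 0.38. Ikbke, which encodes IKKε, the kinase on which TRIM6-made ubiquitin chains act, was at 29.6 to 32.5 CPM over the control libraries, 60.7 to 76.7 over the Hdac1-deficient ones and 50.1 to 52.7 over the Hdac2-deficient ones. No libraries of different groups overlapped. Ikbke rose in Hdac1-deficient enteroids (log2 fold change 1.17, SE 0.06, edgeR adjusted p = 1.9e-11) and had a value of 0.75 in Hdac2-deficient enteroids (SE 0.04, edgeR adjusted p = 2.7e-12). Dhx58, which encodes the RIG-I-like receptor LGP2, rose in Hdac1-deficient enteroids (log2 fold change 1.02, SE 0.13, edgeR adjusted p = 1.5e-06) and had a value of 0.76 in Hdac2-deficient enteroids. Without Hdac1-deficient replicate 2, or without control replicate 1, 1 gene of this list was called in Hdac1-deficient enteroids.

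Of interferon-induced effector genes, 9 of 26 tested were called with Hdac1 deleted and 14 of 28 with Hdac2 deleted, all of them higher. Among all genes 6.87% and 5.45% were called higher. Against control, Igtp passed the filter on low counts only with Hdac1 deleted, and Cxcl10, Ifi44 and Oas3 only with Hdac2 deleted. The control libraries were shared, so the level in the mutant decided whether these genes were tested. The counts of 9 and 14 thus partly reflect the filter. Without it they were 11 and 17, for which the share over all genes was not calculated. At any size of change 17 effectors were higher and 4 lower with Hdac1 deleted, where 32.7% of all genes were higher and 31.9% lower. With Hdac2 deleted 22 were higher and 1 lower, where 31.4% of all genes were higher and 30.9% lower. The list medians were 0.55 and 0.85 on the log2 scale. Oas1a, an enzyme that makes the activator of RNase L, had means of 0.815 ± 0.133 CPM for control, 6.52 ± 0.658 for Hdac1-deficient and 5.94 ± 0.712 for Hdac2-deficient enteroids, and rose by 3.00 (SE 0.14, edgeR adjusted p = 3.5e-13) and 2.86 (SE 0.15, edgeR adjusted p = 5.7e-13). Oasl2 rose by 1.70 and 1.97, and the poly-ADP-ribose polymerase family gene Parp14 by 1.37 and 1.33. Of the Trim members, 3 of the 6 tested other than Trim6 had positive values with Hdac1 deleted (Trim12c, Trim34a and Trim21), and 3 with Hdac2 deleted (Trim5, Trim34a and Trim21).

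**Figure D4:**
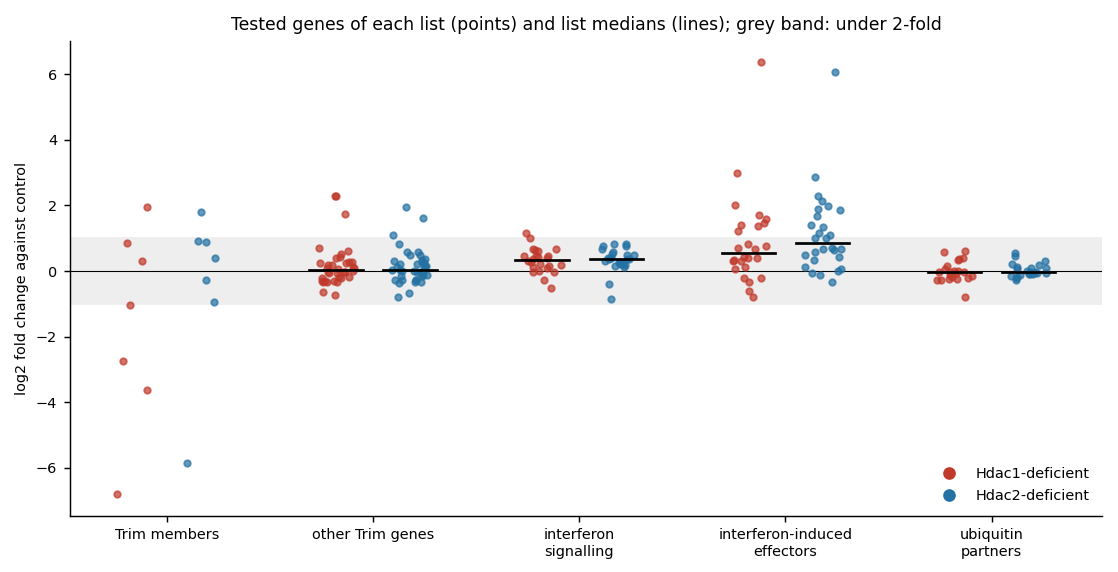
Log2 fold change against control of each tested gene (points) among the Trim members, the other Trim genes and 3 pathway lists, in Hdac1-deficient (red) and Hdac2-deficient (blue) enteroids, with lines at the median of each list other than the members. In Hdac1-deficient enteroids the members spread from -6.81 to 1.94 and the effector list from -0.78 (Ifit1bl1) to 6.37 (Oas1g). The effector list has medians of 0.55 and 0.85 in the 2 mutants.

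Of 22 tested genes for ubiquitin enzymes and signalling partners of TRIM proteins, 0 were called in either mutant by edgeR or DESeq2, against 10.6% and 8.30% of all genes in edgeR. An unadjusted p under 0.05 in edgeR was found for 13 in each, where 67.5% and 65.7% of all genes had one. The median log2 fold changes were -0.04 and -0.03.

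Over the 12 libraries, the genes whose log2 CPM profile lay closest to that of Trim6, by the mean absolute difference after centring each gene, were Car2 (0.264), Fam129a (0.272), Chrna4 (0.278), Ly6d (0.281) and Akp3 (0.296), out of 14509 genes compared. None of them lies on chromosome 7. Car2, a carbonic anhydrase, had means of 6.58 ± 0.487 CPM for control, 3.89 ± 0.19 for Hdac1-deficient and 19.9 ± 1.26 for Hdac2-deficient enteroids. Of the other members, Trim5 was the closest to Trim6, at rank 320, followed by Trim30d at 1358, Trim21 at 2017 and Trim34a at 6543. Trim12c at 14395 and Trim12a at 14418 were among the genes least like Trim6, and Trim30a was not compared. The ranking uses the Trim6 values by which the set was chosen, so it is a description.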

How the data were processed

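RNA-Seq was done on 12 libraries, grouped by the genotype in their titles. Poly(A) RNA libraries made with a directional kit were sequenced as paired reads of 100 bases. The authors aligned them to GRCm38 with STAR (2.4.0f1 in the submitters' processing notes) and deposited raw counts per gene, 1 table per mutant with the same 4 control libraries. Genes with fewer than 10 counts over the 8 libraries of a table are not in it. The counting program and its handling of strand and of reads with several matches are not given in the sources used here. The 16 columns of normalized values were not used, nor were the columns with the authors' log fold changes, log CPM and p-values from DESeq and edgeR.

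Counts were tested with edgeR 4.0.16 in R 4.3.3 (quasi-likelihood F test, TMM, filterByExpr, Benjamini-Hochberg adjustment over all tested genes). Each mutant was fitted with control over 8 libraries, and the mutants were compared in a fit of all 12. The script was tested on simulated data. CPM used TMM factors of all 12 libraries (0.9799 to 1.0222). Counting intervals are exact at 95%. Each SE is the absolute log2 fold change divided by the square root of the F statistic. It was not estimated by the fit itself and is approximate, above all at low counts. Gene models came from GENCODE M21 and promoters from RefSeq. Alternatives were DESeq2 1.42.0, other scaling, no filter, other fits, the replicate block and each library left out.

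The members and lists were chosen with earlier results of these data known. Genes named were the members, Hdac1 and Hdac2, listed genes of the cluster or within 500 kb, up to 3 called genes per list with the largest change in either mutant with an average log2 CPM no lower than 1, and the 5 genes most like Trim6. Trim68 was named after its values were seen, as were genes listed without values. Cell type markers were read as summed CPM, and some also gene by gene.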

Additional observations from a re-analysis of the deposited data

Results flagged for a closer look

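In each group of 4 libraries, the highest and lowest values of each member were examined for a library far from the other 3, in 24 groups in all, of which chance gives about 1 in 20. For Trim12a, Hdac1-deficient replicate 4 was the only library of its group with a count, at 0.0363 CPM, which is 1 read. For Trim30a, Hdac1-deficient replicate 3 stood apart at 0.0 CPM, with 3 or 4 counts in the other libraries of its group.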

How the results depend on the processing

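The fold changes of the 6 tested members other than Trim6, 18 in all, kept their direction and their side of the 2-fold call in 269 of 275 recalculations. The 3 reversed values were near 0 and between the mutants. Trim34a, over a range of -0.16 to 0.02 with single libraries left out, was at 0.01 without Hdac2-deficient replicate 2 and 0.02 without Hdac2-deficient replicate 3, and Trim21, over a range of -0.19 to 0.01, was at 0.01 without Hdac2-deficient replicate 3. Members called other than Trim6 numbered 1 to 3 in Hdac2-deficient enteroids when single libraries were left out, with Trim34a added without control replicate 1, and Trim5 and Trim12c added without control replicate 3. The interferon signalling list had 1 to 2 calls in Hdac1-deficient enteroids when single libraries were left out, and 1 in Hdac2-deficient enteroids without the filter on low counts. The cause of these changes was not tested.

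Replicate numbers recur across groups. Deviations of same-numbered libraries had correlations of -0.05 to 0.094, within the range of -0.095 to 0.131 for other pairs. Of the 12 libraries, 4 correlated best with their own number in both other groups. These values do not settle whether libraries of the same number were paired. With the replicate block, the Hdac1 comparison called 4 members other than Trim6, the Hdac2 comparison 1 and the comparison between mutants 3, and no call of a member or count of a list changed. Depth limits Trim30a, Trim12a and Trim5 in the mutants where they had 10 or fewer counts in all.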
